A study of Mus musculus with 8 samples.

Results

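The genes described here are 39 genes of DNA replication, chosen by name: the helicase subunits Mcm2 to Mcm7, origin licensing and firing factors, the sliding clamp Pcna and its loader, the single-strand binding protein RPA, the replicative polymerases, enzymes of the lagging strand and of nucleotide supply, and cyclin E. Of these, 37 had at least 1 probe set (a group of short probes that reads 1 transcript) annotated to that gene alone, among 12393 such genes on the array, and they took 66 of its 20380 single-gene probe sets. No probe set was named for Gins2 or Gins3 alone. A further member, Tyms, had 3 probe sets of its own, and all 3 were too dim to test, so 36 genes and 56 probe sets were tested.

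The series measured gene expression in laser captures from the yolk sac of FVB/N mice at embryonic day 9.5. There were 4 erythroid captures, of primitive erythroid precursors, and 4 epithelial captures, which the study used as its non-erythroid control. No group carried a mutation or received an agent. Each erythroid capture was paired with an epithelial capture cut from the same slides, and a pair drew on 2 to 4 yolk sacs of 2 litters, so every value is that of a pool of animals. An erythroid cell needed 2 to 3 pulses of the laser and an epithelial cell 1. RNA inputs of 10 to 39 ng were amplified over a pair of labelling cycles and read on Affymetrix Mouse Genome 430A 2.0 arrays, 1 per capture. In such bulk captures, fewer cells of a type and less RNA per cell cannot be told apart.

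As background, DNA replication starts when the origin recognition complex, Cdc6 and Cdt1 load the Mcm2 to Mcm7 ring onto DNA, and geminin (Gmnn) blocks reloading. Cdc45 and the GINS complex turn the ring into a moving helicase, polymerase alpha and primase lay primers, and polymerases delta and epsilon extend them, held to DNA by the Pcna ring that the Rfc complex loads. Most of these genes are transcribed in a wave at the entry to S phase through E2F factors, and primitive erythroid precursors still divide while they mature in the circulation.

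Promoter windows of RefSeq (GRCm38.p6, 250 bases before to 50 after an annotated start, 300 in all) were available for 31 of the 39 genes. They were searched on both strands for 4 spellings of the E2F site, TTTCCCGC, TTTCGCGC, TTTGCCGC and TTTGGCGC, and for CCAAT. The 4 windows below are shown because Pcna and Cdc6 rose in erythroid captures and because Mcm5 and Mcm6 hold overlapping E2F letters on opposite strands; capitals mark the E2F letters. The windows lie at chr2:132253131-132253430 on the minus strand (Pcna), chr11:98907901-98908200 on the plus strand (Cdc6), chr8:75109259-75109558 on the plus strand (Mcm5) and chr1:128359656-128359955 on the minus strand (Mcm6).
Pcna: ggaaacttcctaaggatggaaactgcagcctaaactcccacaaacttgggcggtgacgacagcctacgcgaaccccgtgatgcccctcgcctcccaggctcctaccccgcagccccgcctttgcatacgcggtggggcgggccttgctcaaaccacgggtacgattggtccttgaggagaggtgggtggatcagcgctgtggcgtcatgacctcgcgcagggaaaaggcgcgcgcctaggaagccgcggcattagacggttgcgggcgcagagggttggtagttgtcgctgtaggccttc
Cdc6: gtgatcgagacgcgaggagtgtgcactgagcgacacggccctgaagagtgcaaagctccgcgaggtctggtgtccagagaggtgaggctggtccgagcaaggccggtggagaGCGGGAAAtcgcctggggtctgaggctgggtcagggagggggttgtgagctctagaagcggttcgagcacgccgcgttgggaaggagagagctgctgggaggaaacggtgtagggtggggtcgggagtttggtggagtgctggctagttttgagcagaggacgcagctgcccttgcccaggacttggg
Mcm5: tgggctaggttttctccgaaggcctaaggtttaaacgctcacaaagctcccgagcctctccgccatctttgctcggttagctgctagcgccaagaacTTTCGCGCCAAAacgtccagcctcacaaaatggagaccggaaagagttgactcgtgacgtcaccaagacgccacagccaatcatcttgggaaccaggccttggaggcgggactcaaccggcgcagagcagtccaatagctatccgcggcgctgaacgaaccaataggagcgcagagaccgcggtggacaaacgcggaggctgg
Mcm6: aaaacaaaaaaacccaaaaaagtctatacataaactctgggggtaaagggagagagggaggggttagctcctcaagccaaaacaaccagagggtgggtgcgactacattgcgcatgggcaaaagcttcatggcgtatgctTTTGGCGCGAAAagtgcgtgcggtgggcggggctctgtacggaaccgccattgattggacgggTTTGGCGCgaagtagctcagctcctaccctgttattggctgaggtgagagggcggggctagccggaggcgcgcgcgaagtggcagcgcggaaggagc

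The E2F letters stood in the windows of 12 of the 31 replication genes (38.7%), against 704 of 27025 genes in the whole table (2.61%). CCAAT stood in 20 of the 31 (64.5%), against 11096 of 27025 (41.1%). The match in Cdc6 began at base -138, counted from the annotated start. In Mcm6, matches at -110 and -106 overlapped on opposite strands and another began at -47, and in Mcm5 matches at -153 and -149 overlapped. By role, 4 of the 5 helicase genes in the table had the letters (Mcm3, Mcm5, Mcm6 and Mcm7), as had Orc1, Cdc6 and Cdt1 of the licensing factors, while none of the 3 RPA genes and none of the 4 nucleotide genes had them. Of the 4 genes that rose in erythroid captures (described next), 1 had the letters, Cdc6, and of the other 27 genes 11 had them. A match is a description of letters, not evidence of binding. Only these 4 exact spellings were searched, so a window without a match may hold other spellings of the site.

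**Figure D1:**
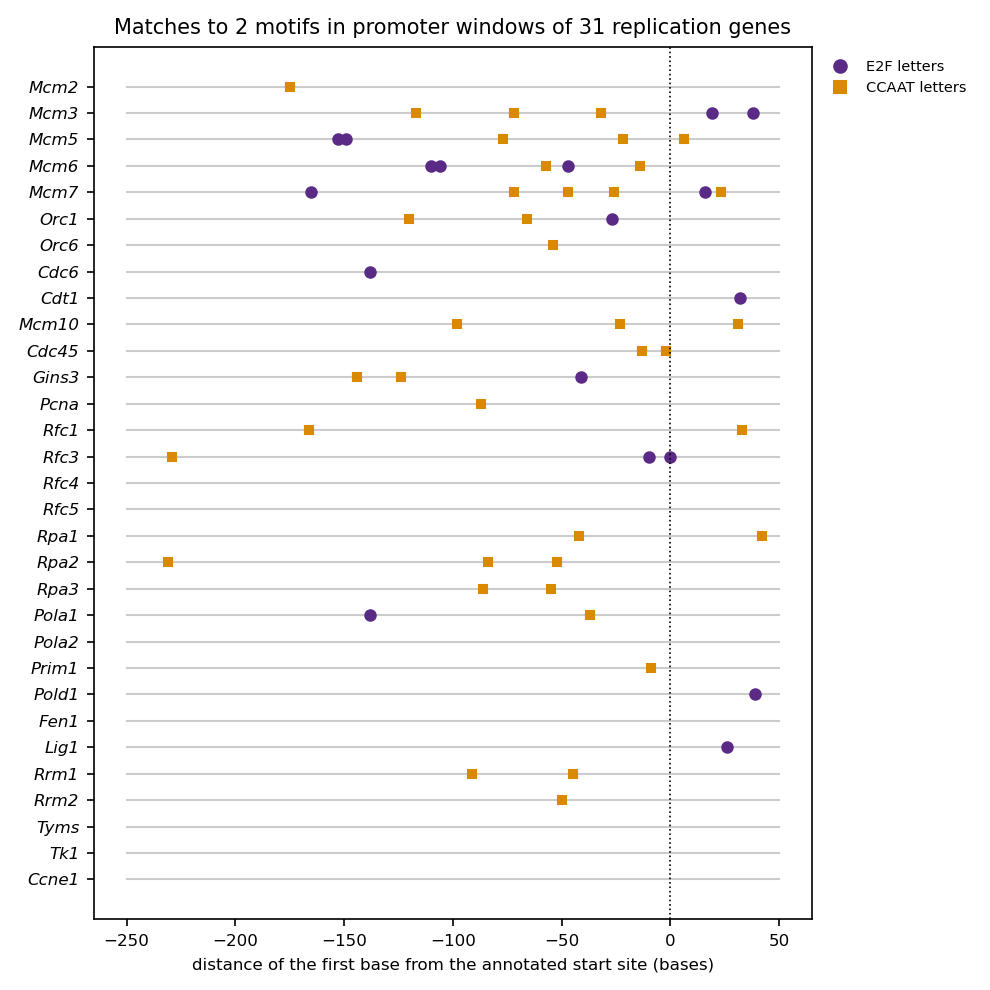
Positions of E2F letters (circles) and CCAAT letters (squares) in the promoter windows of 31 replication genes, in bases from the annotated start, with the genes ordered by role. E2F letters appear in 12 genes and are frequent among the Mcm genes, and Pcna shows a CCAAT match without E2F letters.

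The erythroid captures carried their own markers: 9 of 11 tested erythroid markers were higher and none lower, with a median log2 difference of 2.12 (Klf1 2.49, Ermap 2.49, Epb42 2.46), and 13 of 15 visceral endoderm markers were lower, with a median of -1.61 (Fabp1 -2.05, Cldn7 -1.85, Epcam -1.84). Markers of mesenchyme and mesothelium were also higher in erythroid captures for 6 of 10 genes, with summed signals of 28591.8 to 52486.1 in erythroid and 6900.77 to 25921.4 in epithelial captures, and none of these markers was at 0. Megakaryocyte markers were higher for 3 of 6 genes and summed to 5229 to 18636 in erythroid and 1651 to 2796 in epithelial captures. Endothelial markers (1 of 7 higher) summed to 1210 to 2669 in erythroid and 692 to 1244 in epithelial captures, and macrophage markers (0 of 4 called in limma from the probe set read for the gene, 2 higher at unadjusted p under 0.05, and a second C1qb probe set called higher) to 945 to 1629 and 631 to 1042. The part of these other cell types in the differences below was not tested. The Gapdh control's 3' over 5' signal ratio, a sign of RNA quality, lay between 38.7 and 44.4 in pairs 1 and 2 (4 arrays) and between 7.0 and 17.4 in the others. The Actb control's ratio lay between 46.5 and 131 in pairs 1 and 2 and between 7.75 and 13.5 in the others, and within pair 1 it was 46.5 in the erythroid and 131 in the epithelial capture. Between cell types within pairs the Gapdh ratio differed by a mean of 0.28 on the log2 scale (SD 0.56, n = 4 pairs, two-sided exact sign-flip p = 0.5, a test that 4 pairs cannot take below the threshold), and the Actb ratio by -0.21 (SD 0.95, n = 4 pairs, same exact test, p = 0.75).

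Across the 36 tested genes, erythroid captures had more signal for a few members and a small surplus for most. Pcna, Rfc4, Cdc6 and Rrm1 were called higher in erythroid captures (limma, Benjamini-Hochberg adjusted p under 0.05 over all tested probe sets) and none was called lower. That is 11.1% of the members, beside 6.02% of all 7191 tested genes called higher and 8.87% called lower. At an unadjusted p under 0.05, 13 of the 36 members were higher and 0 lower, beside 14.3% of all genes higher and 1209 of the 7191 lower. The difference was above 0 for 27 members and below 0 for 9, whereas 49.6% of all tested genes lay above 0. The median of the members was 0.41 on the log2 scale and that of all tested genes -0.01. Under centring of each array on its median, which moved the median of all genes by -0.13, the members' median was 0.19, 23 lay above 0, and only Pcna was called.

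Read from the probe set that stood for each gene (the tested one with the highest mean), no member differed by as much as 2-fold, although a second Rfc4 probe set did (2.08-fold, described with Rfc4). The differences ran from 1.00 for Orc1, just under that mark, to -0.35 for Ccne1, and their standard errors (SE) from 0.12 to 0.50, with a median of 0.21 against 0.25 over all tested genes. The number of arrays limits this precision. In 4 of 4 pairs, 11 members were higher (17.9% of all genes were) and 1 was lower (20.3% of all genes were). The deposited signals of the cell types did not overlap for 5 members, all higher in erythroid captures: the 4 called genes and Orc1. Of all tested genes, 6.22% were higher and 7.48% lower by that measure. Of the 36 genes, 32 were above the array background on all 8 arrays.

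**Figure D2:**
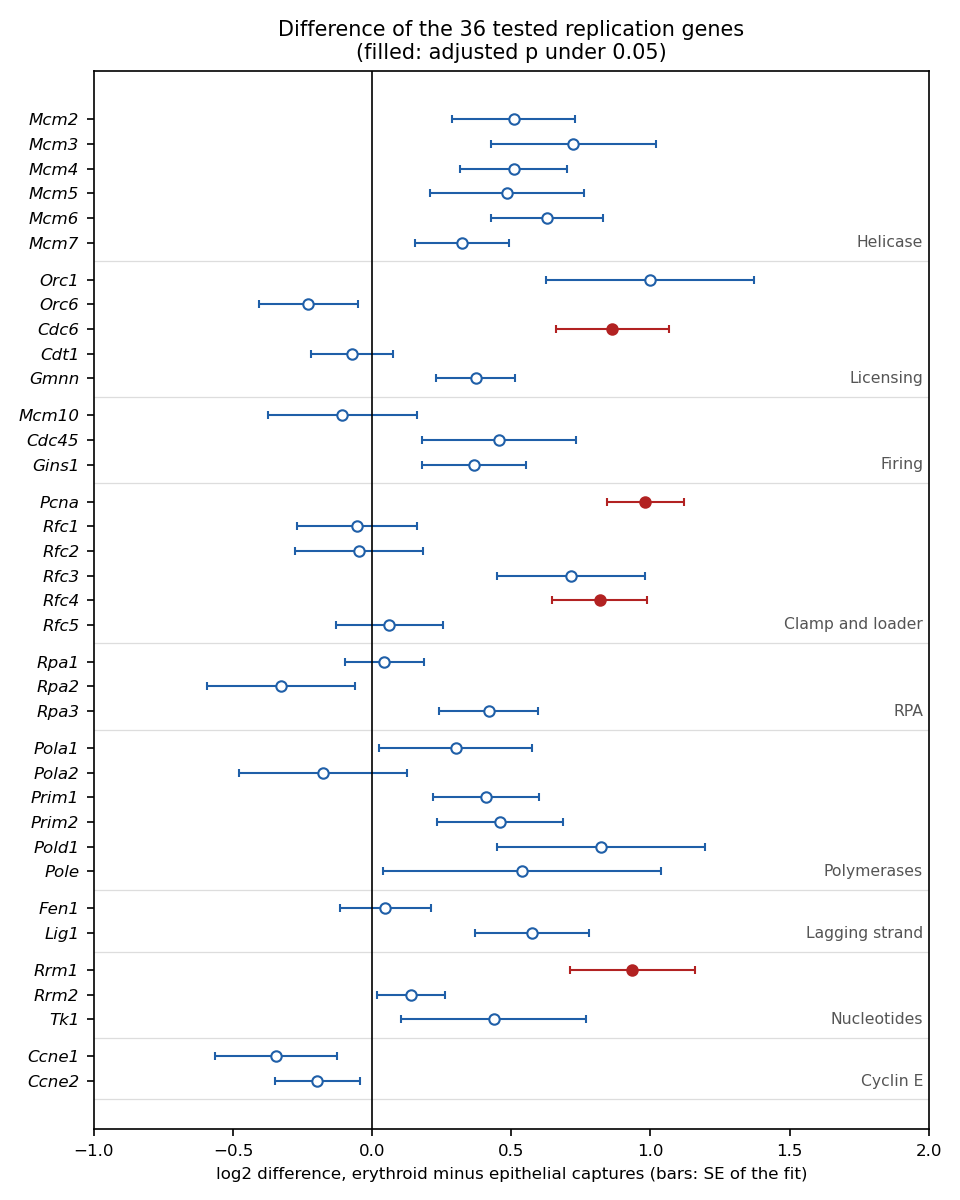
Log2 difference, erythroid minus epithelial captures, of the 36 tested replication genes by role, with the SE of the fit as bars (4 pairs); filled points passed an adjusted p of 0.05. The 4 filled points lie between 0.82 and 0.98, and Mcm2 to Mcm7 all lie above 0 without passing. Mcm10 lies at -0.11, although it was higher in 3 of the 4 pairs.

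Pcna, the ring that holds polymerases to DNA (probe set 1417947_at), gave signals from pair 1 to pair 4 of 4867, 4393, 6512 and 7510.3 in erythroid captures, against 2569.8, 2368, 3416 and 3929.6 in epithelial captures. The lowest erythroid value exceeded the highest epithelial value. The means were 5821 ± 1447 in erythroid and 3071 ± 731 in epithelial captures (SD, n = 4 each). The log2 difference of Pcna was 0.98 (SE 0.14, 1.97-fold, adjusted p = 0.00222), with similar differences in the 4 pairs, 0.90, 0.83, 0.99 and 1.21. Of the settings tried, only the fit without the pairing ended this call (adjusted p = 0.0629), and it ended every other call among the members too.

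Of the clamp loader, the Rfc complex that opens and closes the Pcna ring, a single subunit passed the test. Rfc4 (1438161_s_at) had signals of 2742, 2660.2, 2097 and 1964 in erythroid captures, against 1765, 1295, 1270.3 and 1129 in epithelial captures. The groups did not overlap, and the log2 difference was 0.82 (SE 0.17, 1.76-fold, adjusted p = 0.0113). A second Rfc4 probe set (1424321_at) gave 1.05 (SE 0.19, adjusted p = 0.00526), with signals of 1745, 1904, 2223 and 1766 in erythroid and 945, 947, 1199 and 691 in epithelial captures. Both Rfc4 probe sets therefore pointed the same way in all 4 pairs. The call from the first was lost without pair 4 (adjusted p = 0.0610), with median centring (0.106) and without the variance trend (0.0570).

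The other subunits gave smaller values or less even ones. Rfc3 had signals of 204, 293, 401 and 318 in erythroid captures and 115, 153, 278 and 157 in epithelial captures, a difference of 0.71 (SE 0.27, adjusted p = 0.0992) that was positive in each pair, while its second probe set gave -0.18. Rfc1, the large subunit, gave -0.05 (SE 0.22), Rfc2 -0.05 (SE 0.23) and Rfc5 0.06 (SE 0.19), none past the test. For Rfc1 the probe sets ranged from -0.05 to 0.53. From the probe set read for each gene, the within-pair difference of Rfc4 lay above those of Rfc1, Rfc2 and Rfc5 in each of the 4 pairs. The other Rfc1 probe sets did not keep that order, with 1.60 in pair 1 from one and 1.06 in pair 2 from the other, and the contrast between subunits was not tested. Under median centring Rfc5 lay below 0 as well, which left 3 of these 6 clamp and loader genes above 0 in place of 4.

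**Figure D3:**
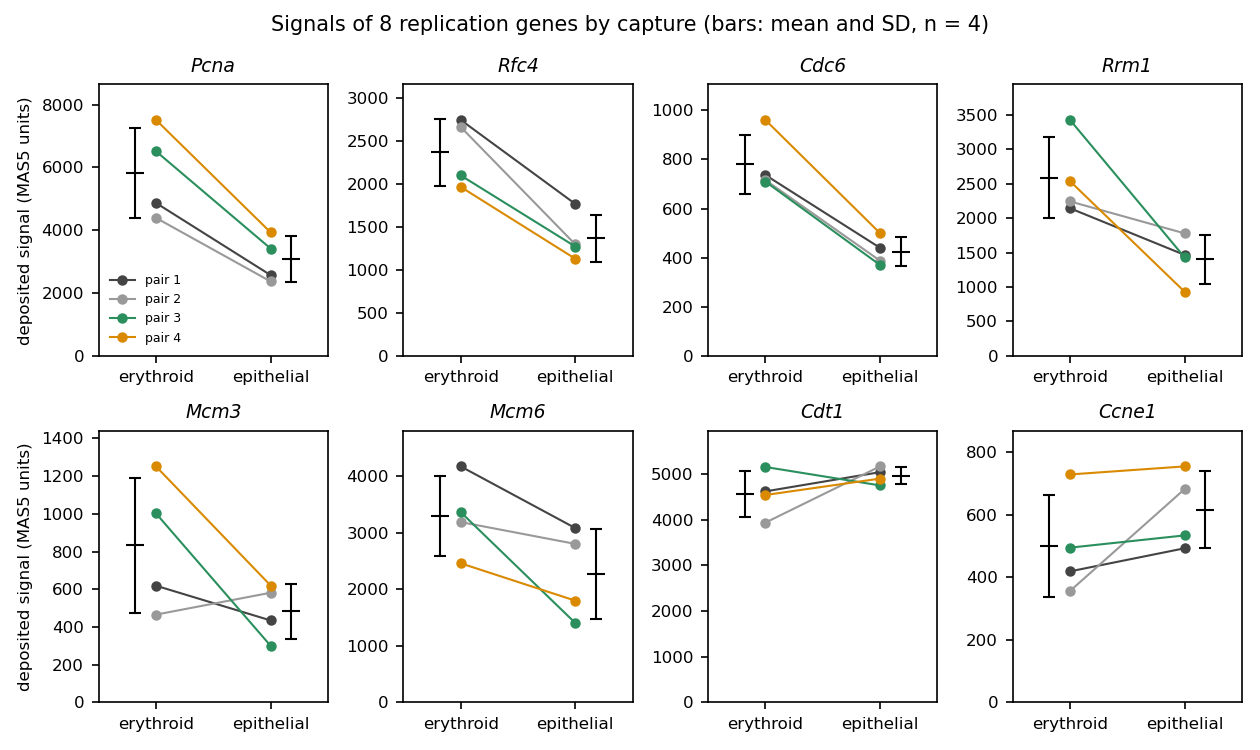
Deposited signal (MAS5 units) of 8 replication genes in erythroid and epithelial captures, with a line for each of the 4 pairs and the mean and SD of each group (n = 4). All 4 lines of Pcna, Rfc4, Cdc6 and Rrm1 are higher at the erythroid end, as are those of Mcm6, whose groups overlap; Mcm3 and Cdt1 are mixed, and all 4 lines of Ccne1 are lower at the erythroid end.

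Among the licensing factors, Cdc6, the ATPase that recruits the Mcm ring with Cdt1, rose. Its probe set (1417019_a_at) had signals of 737, 716, 709.9 and 961 in erythroid captures, against 440.1, 388, 370.2 and 499.9 in epithelial captures. The groups did not overlap, with means of 781 ± 121 and 424 ± 58.4 in erythroid and epithelial captures (SD, n = 4 each). The log2 difference was 0.86 (SE 0.20, 1.82-fold, adjusted p = 0.0191). It missed the threshold without pair 2, 3 or 4 (adjusted p = 0.0576, 0.0580 and 0.0999), with median centring (0.0741) and without the variance trend (0.0517).

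Orc1, the largest subunit of the origin recognition complex, also had groups that did not overlap, but its pairs were uneven. Its signals were 212, 249.5, 244 and 208 in erythroid captures, against 40.8, 177, 88.1 and 158 in epithelial captures, where only 2 of 4 arrays were above background. The within-pair differences were 2.08, 0.74, 1.10 and 0.07, and their mean of 1.00 (SE 0.37) missed the threshold (adjusted p = 0.102). The spread lay in the epithelial captures, at 116 ± 62.8, more than in the erythroid captures, at 228 ± 21.7 (SD, n = 4 each).

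Cdt1, which works beside Cdc6, and its inhibitor geminin gave no call. Cdt1 had signals of 4619.9, 3936, 5155 and 4541 in erythroid captures and 5042, 5167, 4751 and 4900.4 in epithelial captures, a difference of -0.07 (SE 0.15, adjusted p = 0.78). Gmnn was higher within all 4 pairs, at 7401, 6842, 5239.6 and 4030.3 in erythroid against 4689, 5357, 4137 and 4002 in epithelial captures, by 0.37 (SE 0.14, adjusted p = 0.107). Orc6, another origin recognition subunit, gave -0.23 (SE 0.18, adjusted p = 0.427). Licensing thus held values on both sides of 0, with a median of 0.37 over its 5 genes.

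The Mcm2 to Mcm7 genes, which encode the 6 subunits of the replicative helicase, all had a difference above 0 from the probe set read for the gene, under each of the 4 scalings tried, and none was called in limma. Of their 14 tested probe sets, 13 lay above 0, and the exception was a probe set of Mcm3 (1426653_at, -0.048, SE 0.54), which stands for the gene when x, s and a probe sets are left out. At an unadjusted p under 0.05, 4 of the 6 were higher. Their median was 0.51, or 0.31 under median centring. Mcm6 (1438852_x_at) came nearest to the threshold, with signals of 4169.6, 3186, 3362 and 2458 in erythroid captures against 3079.6, 2800.1, 1402 and 1797 in epithelial captures. From this probe set Mcm6 was higher in each of the 4 pairs, by 0.63 on average (SE 0.20, adjusted p = 0.0602). A second Mcm6 probe set (1416251_at) gave 0.51 (SE 0.25, adjusted p = 0.203) and was lower in the erythroid capture of pair 2 (-0.16).

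Mcm3 had uneven pairs and uneven probe sets. From 1420028_s_at its signals were 619, 466, 1002 and 1251 in erythroid captures against 435, 582, 299.9 and 619.6 in epithelial captures, a difference of 0.72 (SE 0.30, adjusted p = 0.131). Its other tested probe sets gave 0.73 (SE 0.29) and the -0.048 given above, and the mean of its probe sets gave 0.47. Mcm2 had 2239.9, 1319, 1610.0 and 2344 in erythroid and 1548, 1573, 853 and 1472 in epithelial captures, a difference of 0.51 (SE 0.22, adjusted p = 0.151). From the probe set read for each gene, both were lower in the erythroid capture of pair 2 and higher in the other 3 pairs. The other tested Mcm3 probe sets did not keep that pattern. One (1449705_x_at) was higher in all 4 pairs, and the other (1426653_at) was lower in pairs 2 and 3 (-1.16 and -1.03).

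Mcm4, read from 1436708_x_at, had signals of 11164, 12458, 9440.3 and 6191 in erythroid captures against 14759.6, 8379, 4352 and 3819.9 in epithelial captures. Its difference was 0.51 (SE 0.19, adjusted p = 0.105), and a second probe set, 1416214_at, gave 0.53 (SE 0.19, adjusted p = 0.0927). Mcm7 had 5922, 4423, 5483 and 5046 in erythroid and 4683, 4765, 3184 and 4689 in epithelial captures (0.32, SE 0.17, adjusted p = 0.232). Mcm5 had 256, 235, 479 and 570.3 in erythroid and 101, 203, 276 and 687 in epithelial captures (0.48, SE 0.28, adjusted p = 0.273). In each of these genes the groups overlapped.

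The factors that fire loaded origins did not pass the test. Gins1, a subunit of the GINS complex, had signals of 2325, 1822, 2524 and 1537 in erythroid captures and 1502, 1482, 1705 and 1696 in epithelial captures (0.37, SE 0.19, adjusted p = 0.219). Cdc45, its partner in the active helicase, was higher in all 4 pairs by amounts from 0.09 to 0.97, with a mean of 0.45 (SE 0.28, adjusted p = 0.307). Mcm10, which helps to activate the helicase, gave -0.11 (SE 0.27). It was lower in pair 1 (-1.11) and higher in the other 3 pairs (0.02, 0.23 and 0.43), and without pair 1 its difference was 0.22.

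Of the polymerase and primase genes, 5 of 6 lay above 0, with a median of 0.43, and none was called from the probe set that stood for the gene. None was past an unadjusted p of 0.05 either. Prim1, the catalytic subunit of primase, differed by probe set. The one read for the gene (1449061_a_at) gave 0.41 (SE 0.19, adjusted p = 0.183). The other (1418369_at) passed, at 0.58 (SE 0.17, adjusted p = 0.0445), with signals of 1993, 1953, 2320.2 and 2564 in erythroid captures and 1175, 1219, 1892 and 1863 in epithelial captures. With it, 6 of the 56 tested member probe sets were called higher and 0 lower, beside 6.19% and 7.69% of all 11449 tested probe sets.

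Pold1, the catalytic subunit of polymerase delta, had signals of 679, 441, 587 and 714 in erythroid captures against 515, 694, 133 and 185 in epithelial captures (0.82, SE 0.37, adjusted p = 0.169). Its second probe set gave 0.62 (SE 0.35). Pole, the catalytic subunit of polymerase epsilon, was dim, above background on 5 of 8 arrays, with 180.4, 26.7, 432 and 329 in erythroid and 71.1, 106, 218 and 60.6 in epithelial captures (0.54, SE 0.50, adjusted p = 0.517). Prim2 gave 0.46 (SE 0.23), Pola1 0.30 (SE 0.27) and Pola2 -0.18 (SE 0.30), where Prim2 is the large primase subunit and Pola1 and Pola2 belong to polymerase alpha. None of these 3 passed the test.

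The RPA complex, which coats single-stranded DNA, showed no shared direction. Rpa1, the large subunit, had signals of 5994, 5311, 5897 and 5332 in erythroid captures and 6914, 5799, 4693 and 5297 in epithelial captures (0.04, SE 0.14, adjusted p = 0.868). Rpa3 was higher in each pair, with a mean of 0.42 (SE 0.18, adjusted p = 0.143). Rpa2 gave -0.33 (SE 0.27, adjusted p = 0.452), mostly through pair 2, where it was 151 in the erythroid and 381 in the epithelial capture. The median of the 3 genes was 0.04 and changed sign under scaling, to -0.18 with median centring and -0.03 with centring on the 75th percentile.

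On the lagging strand, Lig1, the ligase that seals Okazaki fragments, was higher in each of the 4 pairs. Its signals were 774, 701, 719.7 and 1082 in erythroid captures and 493, 605, 378 and 737 in epithelial captures, a difference of 0.57 (SE 0.21) that missed the threshold (adjusted p = 0.0893). Fen1, the nuclease that trims the fragments' flaps, gave 0.05 (SE 0.16, adjusted p = 0.881) from the probe set read for the gene and 0.42 (SE 0.34) from the other.

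In nucleotide supply, the large and the small subunit of ribonucleotide reductase gave different values. Rrm1, the large subunit (1415878_at), had signals of 2145, 2244, 3428 and 2539 in erythroid captures against 1467, 1779.7, 1430.1 and 932 in epithelial captures. The groups did not overlap, and its log2 difference was 0.94 (SE 0.23, 1.91-fold, adjusted p = 0.0206). Within pairs, the differences were 0.52, 0.34, 1.32 and 1.55. The call was lost without pair 3 (adjusted p = 0.0965) or pair 4 (0.123), with median centring (0.0537) and without the variance trend (0.0953).

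Rrm2, the S-phase subunit that carries the radical, had signals of 8039.8, 10931, 6065 and 5168 in erythroid captures and 9613, 7804, 5085 and 5027 in epithelial captures, a difference of 0.14 (SE 0.12, adjusted p = 0.494). Its other probe sets gave 0.40 (adjusted p = 0.0909) and 0.73 (adjusted p = 0.116). From the probe set read for the gene, the difference of Rrm2 lay under that of Rrm1 in each of the 4 pairs. The other Rrm2 probe sets did not keep that order. One (1416120_at), whose groups did not overlap, gave 1.12 in pair 1 and 1.45 in pair 2, against 0.52 and 0.34 for Rrm1. The other (1448226_at) gave 0.45 in pair 2. The contrast between subunits was not tested. Tk1, the thymidine salvage kinase, was above background on 5 of 8 arrays and split by pair more than by cell type, with 112, 85.5, 499.5 and 729.7 in erythroid and 70.3, 30.4, 619.6 and 621 in epithelial captures (0.44, SE 0.33, adjusted p = 0.418).

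The cyclin E genes, which drive Cdk2 at the start of S phase, were the one group with both values below 0. Ccne1 had signals of 419, 357, 495 and 729.7 in erythroid captures against 493, 683, 535 and 755 in epithelial captures. It was lower in 4 of 4 pairs, alone among the 36 tested genes, yet by an uneven amount (-0.34, -0.82, -0.15 and -0.07), and its mean of -0.35 (SE 0.22) did not pass the test (adjusted p = 0.329). Ccne2 gave -0.20 (SE 0.15, adjusted p = 0.427).

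The size of the differences varied between pairs. The median over the 36 genes was 0.35, 0.15, 0.61 and 0.21 in pairs 1 to 4, and the number of genes higher in the erythroid capture was 25, 20, 29 and 28. For 24 of the 36 genes the mean difference was larger in pairs 3 and 4 than in pairs 1 and 2, as it was for 51.9% of all tested genes. The helicase genes had a median of 0.91 in pairs 3 and 4, against 0.13 in the other pairs, and the polymerase and primase genes 0.83 against -0.15. The median was also higher in pairs 3 and 4 for the lagging strand (0.53 against 0.09), RPA (0.26 against -0.17) and cyclin E (-0.20 against -0.34). The medians went the other way for licensing (0.29 against 0.45), the clamp and its loader (0.30 against 0.44), firing (0.33 against 0.38) and nucleotide supply (0.22 against 0.43). Within nucleotide supply, Rrm1 itself gave 1.44 in pairs 3 and 4 against 0.43. Pairs 3 and 4 are those with the lower 3' to 5' ratios, and the marker lists also lay further from 0 there: the median was 3.23 against 1.28 for erythroid markers, -2.08 against -1.12 for visceral endoderm, 2.46 against 0.28 for mesenchyme, 2.17 against 1.05 for megakaryocytes, 0.81 against 0.11 for endothelium and 0.52 against 0.37 for macrophages. The part of these in the split was not tested.

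**Figure D4:**
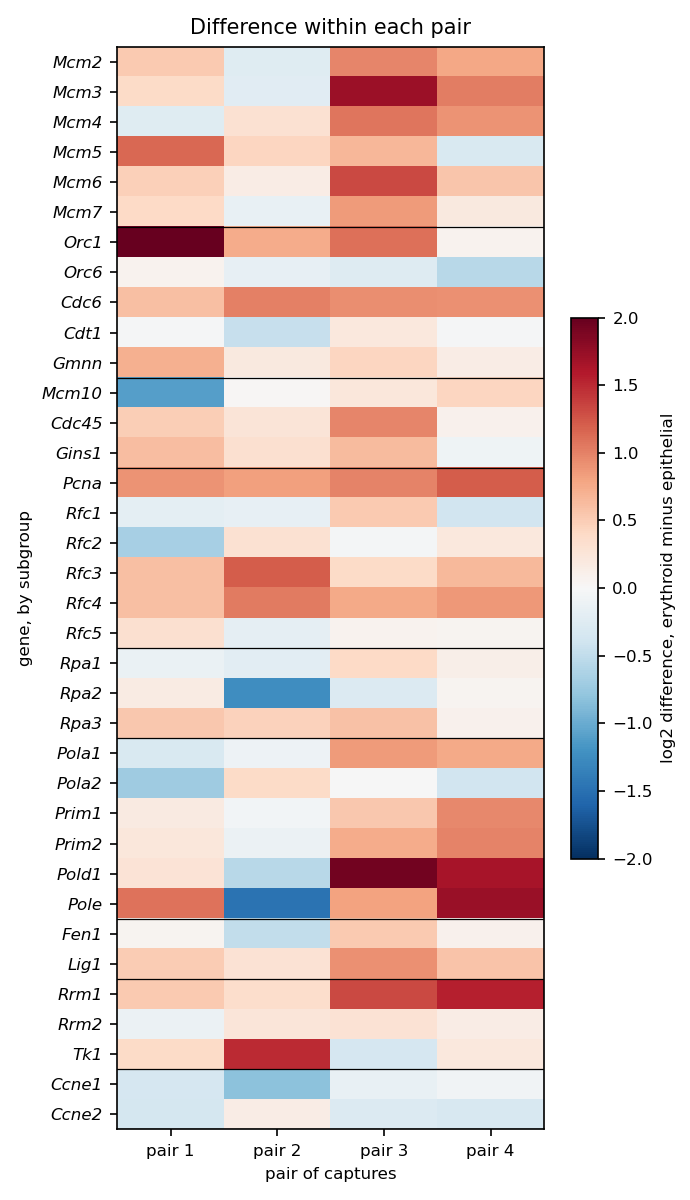
Log2 difference, erythroid minus epithelial, within each of the 4 pairs for the 36 tested replication genes, ordered by role; red is higher in the erythroid capture, and the colour scale ends at 2 in each direction (Orc1 in pair 1, at 2.08, is at its end). Pcna, Rfc4, Cdc6 and Rrm1 are among the 11 genes that are red in all 4 pairs, and most Mcm genes are redder in pairs 3 and 4.

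In a fit of pairs 3 and 4 alone, 12 of 36 members were called higher and 0 lower, beside 11.8% and 13.7% of all genes in that fit: Cdc6, Mcm2, Mcm3, Mcm4, Mcm6, Mcm7, Pcna, Pold1, Pole, Prim2, Rfc4 and Rrm1. In a fit of pairs 1 and 2 alone, 2 of 34 were called higher and 0 lower, Pcna and Rfc4, beside 3.35% and 5.29% of all genes. Both fits left fewer residual degrees of freedom than the 3 of the fit of all pairs, which limits these calls. The difference between the pair sets was tested as an interaction and passed for 2 members, beside 2% of all genes and 1.84% of all probe sets. Mcm4 (1436708_x_at) gave 0.99 in pairs 3 and 4 against 0.03 in the other pairs (interaction adjusted p = 0.0434), and Pold1 (1456055_x_at) gave 1.79 against -0.14 (interaction adjusted p = 0.0358). The second probe sets of both genes did not pass this test (adjusted p = 0.401 for Mcm4 and 0.974 for Pold1). Mcm3, at 1.37 against 0.08, did not pass it either (adjusted p = 0.153). At an unadjusted p under 0.05 for the interaction there were 7 members. The share of all genes at that level was not computed, so this count cannot be read against it.

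Of 39 further replication genes, 28 were tested, and 2 were called higher and 0 lower. The 2 are 7.14% of those tested, close to the 6.02% of all tested genes called higher (8.87% were called lower). Of the 28, 24 lay above 0, as did 49.6% of all tested genes, with a median of 0.44. Pclaf, a small protein that binds Pcna, had signals of 2759.8, 2681, 1934 and 2412 in erythroid captures against 1338, 1648, 981 and 999 in epithelial captures, a difference of 1.02 (SE 0.18, adjusted p = 0.00528). Top2a, the topoisomerase that untangles replicated DNA, was higher by 0.64 (SE 0.18, adjusted p = 0.0448), with 3416, 2435, 2884 and 2912 in erythroid and 2260.3, 2142, 1381 and 2062 in epithelial captures. The groups did not overlap for either gene. A second probe set of Pole4, a small subunit of polymerase epsilon, was also called higher (0.73, SE 0.21, adjusted p = 0.0413).

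Of 12 further genes of nucleotide supply, 9 were tested, with a median of 0.26, and from the probe set read for the gene limma called 0. At an unadjusted p under 0.05, 2 were higher and 1 lower, beside 1028 and 1209 of all 7191 tested genes. A second probe set of Cad, which encodes the enzyme that starts pyrimidine synthesis, was called higher in limma (1452829_at, 1.38, SE 0.34, adjusted p = 0.0235). Its signals were 209, 188, 350 and 393 in erythroid and 69.3, 116, 50.4 and 174 in epithelial captures. The epithelial signals of pairs 1, 2 and 3 lay under the array background (88.1, 133 and 90.6), which limits the size of this difference. The probe set read for the gene gave 0.35 (adjusted p = 0.336). Of 17 regulators of S phase, 11 were tested, and 2 were called higher (18.2%, beside 6.02% of all tested genes) and 0 lower. Their median was 0.15, or -0.01 under median centring. Rb1, the retinoblastoma protein that holds E2F factors in check, rose by 1.37 (SE 0.24, adjusted p = 0.00515), with signals of 863, 542, 766 and 404 in erythroid captures and 364, 318, 192 and 86.5 in epithelial captures. E2f5, an E2F factor that works mainly as a repressor, was higher by 0.98 (SE 0.24, adjusted p = 0.0228), with 994, 977, 1323 and 1161 in erythroid and 698, 632, 419.9 and 536 in epithelial captures.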

How the data were processed

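RNA of 4 erythroid and 4 epithelial captures, in 4 pairs, was read on 8 arrays. The authors deposited 1 intensity per probe set and array, a MAS5 signal on a linear scale. GCOS, MAS5 and affy are named per the submitters' processing notes, with no version given. The trimmed mean was 500 on each array, and array medians ran from 81.6 to 127. An offset of 8.14 (the 10th percentile) was added, log2 was taken and the arrays were quantile normalised. Probe sets that reached their array's median on at least 4 of 8 arrays were tested (11449 probe sets, 7191 genes). The fit used R 4.3.3 and limma 3.58.1 (lmFit, then eBayes with its trend option) on pair and cell type, which left 3 residual degrees of freedom. P-values were two-sided and adjusted by Benjamini-Hochberg over every tested probe set (threshold 0.05). The tested probe set with the highest mean stood for a gene. For 16 of the 36 genes that was a probe set with an x, s or a suffix, which can read related transcripts. Of 22690 probe sets, 64 were controls, 691 were annotated to several genes and 1555 to none here, and none of these named a gene. An array's background level was taken at the 95th percentile over 116 probe sets of receptors, keratin-associated proteins and defensins.

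The pairing comes from the labels' protocols. Deviations from the group means correlated within pairs at 0.44, 0.34, 0.31 and 0.54. Captures of different pairs correlated almost as well within a set, at 0.32 and 0.35 between pairs 1 and 2 and at 0.28 and 0.33 between pairs 3 and 4. Across the 2 sets the correlations ran from -0.45 to -0.29. These values part pairs 1 and 2 from pairs 3 and 4 more than they part the single pairs. The members and lists were chosen with earlier results of these data known, as was the split into pairs 1 and 2 and pairs 3 and 4. Every member could be named, and of other lists the called genes (up to 5) or, for markers, the 3 with the largest difference. The alternatives changed scaling, offset, filter, pairing, variance trend, choice of probe set or pairs used. Cad, Pole4 and C1qb were named after their values were seen.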

Additional observations from a re-analysis of the deposited data

Results flagged for a closer look

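A single array stood apart in 2 of the 72 groups of 4 arrays examined among the replication genes, where chance flags about 1 in 20 groups. On the quantile-normalised log2 scale, the erythroid capture of pair 2 (deposited signal 4423) was separated from the other erythroid captures for Mcm7 by 0.877 of the group's range. On that same scale, the epithelial capture of pair 3 (deposited signal 218) was separated from the other epithelial captures for Pole by 0.919 of the range. On the deposited signals the gaps were 0.416 and 0.708 of the range. For 2 genes the difference between cell types itself differed between sets of pairs, by an interaction term: Mcm4 (1436708_x_at, adjusted p = 0.0434), with 0.99 in pairs 3 and 4 against 0.03 in the other pairs, and Pold1 (1456055_x_at, adjusted p = 0.0358), with 1.79 against -0.14. In both genes a second probe set did not pass that test.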

How the results depend on the processing

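The count of 4 replication genes called remained 4 with the deposited scaling, centring on the 75th percentile, offsets of 1 and 32, no filter, the mean of a gene's probe sets, and no x, s or a probe sets (there Prim1 in place of Cdc6), and was 5 with the stricter filter, which added Mcm6. It was 1 with median centring, 1 without the variance trend, 2 in pairs 1 and 2 alone and 12 in pairs 3 and 4 alone. The fit with no replicate block, which ignores the pairing, called 0 in limma, with 6 at an unadjusted p under 0.05, and 445 probe sets in all. Leaving out 1 pair gave 1 to 8 called genes: 5 without pair 1, 8 without pair 2, 2 without pair 3 and 1 without pair 4. Pcna was called in each of these fits but the unpaired one (adjusted p = 0.0629). Rfc4 was lost with median centring (0.106), no block (0.0896), no trend (0.0570) and without pair 4 (0.0610). Cdc6 was lost in those 4 (0.0741, 0.0591, 0.0517 and 0.0999), without pair 2 (0.0576), without pair 3 (0.0580) and in pairs 1 and 2 alone (0.0621). Rrm1 was lost with median centring (0.0537), no block (0.0909), no trend (0.0953), without pair 3 (0.0965), without pair 4 (0.123) and in pairs 1 and 2 alone (0.289). The median difference of 0.41 became 0.19 with median centring and 0.072 in pairs 1 and 2 alone, and 0.30 to 0.46 when 1 pair was left out. The 1590 probe sets called in all (709 higher, 881 lower) became 1552 (455 and 1097) with median centring, 518 without the trend, 896 without x, s and a probe sets, 1024 in pairs 1 and 2 alone, 2824 in pairs 3 and 4 alone, and 556 to 1536 when 1 pair was left out. The fits of fewer pairs also have fewer residual degrees of freedom, and the cause of these changes was not tested. Of 598 values of single genes under these settings, 539 kept their side of the threshold and direction, 18 lost the threshold and 16 gained it. The other 25 changed sign without passing the threshold, and no called difference changed sign. Dim genes (Orc1, Cdc45, Pole and Tk1) lay near the background on some arrays, which limits their values.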
